A study of Mus musculus with 12 samples.

Results

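A set of 10 inhibitors of MAP kinase signaling was followed in primary mouse skin fibroblasts: the MAP kinase phosphatases Dusp1, Dusp4, Dusp5, Dusp6 and Dusp10, and the Sprouty family genes Spry1, Spry2, Spry4, Spred1 and Spred2. They were chosen by symbol, with earlier results of these data known. They are 10 of the 21556 genes in the count table, where Ensembl identifiers were paired with symbols and positions through GENCODE (GRCm38). Fibroblasts were isolated from the abdominal skin of WT mice (C57BL/6) and of Nox4 KO mice (B6.129-Nox4tm1Kkr/J), which carry a disrupted allele of the NADPH oxidase gene Nox4. The age of these animals was not given in the sources used here. All cultures were starved for 24 h, and the stimulated ones then received TGF-β2 at 10 ng/ml for 24 h. RNA was sequenced from 12 libraries, 3 each of WT control, WT with TGF-β2, Nox4 KO control and Nox4 KO with TGF-β2. The labels number the replicates but do not say from how many animals or cultures they came, so p-values measure only the spread between these samples.

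MAP kinases such as ERK, p38 and JNK are switched on by phosphorylation of a threonine and a tyrosine in their activation loop, and dual-specificity phosphatases of the DUSP family remove both phosphates. The nuclear phosphatases Dusp1, Dusp4 and Dusp5 and the cytoplasmic Dusp6 are classical immediate or delayed response genes of the pathways they restrain, with Dusp5 and Dusp6 acting on ERK, Dusp10 acting mainly on JNK and p38, and Dusp1 acting on all 3 kinase families. Sprouty and Spred proteins act further upstream, between receptor tyrosine kinases and the RAF kinases, and many of them are themselves induced by growth factor signaling. TGF-β is the main inducer of the myofibroblast state in skin fibroblasts and can activate MAP kinases beside its SMAD pathway.

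The total count per library was between 35118344 and 43796260, and each of the 10 genes had at least 412 reads in every library. Counting error was small beside the spread between replicates except for Spry4, whose replicates lay close together. Levels are given as RPKM, reads per kilobase of merged exon scaled to the total count of the library, computed here from the deposited counts. Among the genes used to check the stimulation, Smad7 and Ccn2, direct TGF-β targets, rose in both genotypes, and the myofibroblast actin Acta2 had log2 fold changes of 0.13 in WT and -0.06 in Nox4 KO that did not pass the test. Reads on Nox4 were still counted in the Nox4 KO libraries, between 102 and 207 in control and between 782 and 1175 after TGF-β2, against 203 to 398 and 1314 to 2471 in WT. Nox4 in the Nox4 KO libraries was at 0.270 to 0.926-fold of WT in control and 0.276 to 0.716-fold after TGF-β2 (95% intervals), called in neither by edgeR (adjusted p = 0.830 and 0.835), and counts per gene do not show whether these reads lie outside the disrupted part. Of 9 fibroblast markers, Col1a1 was highest in WT control, at a mean RPKM of 2315, and Lum lowest, at 7.21. Their summed RPKM was 7073 ± 376 in WT control and 5887 ± 517 after TGF-β2, and 7217 ± 713 and 6135 ± 474 in Nox4 KO. Within this sum, Pdgfra was at 39.9 and 3.79 RPKM in WT and 27.7 and 3.31 in Nox4 KO. The summed RPKM of 4 keratinocyte markers stayed at or below 0.901 in every library. The summed RPKM of 8 myeloid markers ranged from 13.1 to 119 and varied between replicates within every group. In each group 1 library stood further from the other 2 than those stood from each other, by a chi-square statistic per gene, namely replicate 3 of WT control, replicate 2 of WT with TGF-β2 and replicate 3 of both Nox4 KO groups, and values without these libraries are given where they change a call. In bulk RNA, fewer cells of a type and less RNA per cell cannot be told apart.

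In unstimulated fibroblasts, Dusp1 and Spry1 were the most abundant of the 10 transcripts, and their order was the same in both genotypes. Dusp1 had a mean RPKM of 52.9 ± 4.80 (SD, n = 3) in WT control and 48.3 ± 10.5 in Nox4 KO control, and Spry1 46.6 ± 2.70 and 43.9 ± 4.62. The libraries of these 2 genes overlapped, and all lay above those of Spry2, the next in order, at 19.6 ± 1.47 and 21.4 ± 2.27 RPKM. Dusp4 followed in both genotypes, at 15.5 ± 3.19 RPKM in WT control, where its libraries overlapped those of Spry2. Spry4 (4.26 ± 0.23 RPKM in WT control) and Dusp10 (4.35 ± 0.88 RPKM) were the least abundant and overlapped each other. After TGF-β2 the order differed at the top, where Dusp4 had the highest mean in both genotypes, 54.6 ± 17.9 RPKM in WT and 61.4 ± 20.4 in Nox4 KO, followed by Spry1, Dusp1 and Dusp5 in WT, where the libraries of these 3 overlapped, and by Spry1, Dusp5 and Dusp1 in Nox4 KO, where the Dusp5 libraries overlapped those of both others and every Spry1 library lay above every Dusp1 library. The Dusp4 libraries lay above those of Spry1 in WT and overlapped them in Nox4 KO. Spry4 was lowest in all 4 groups.

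**Figure D1:**
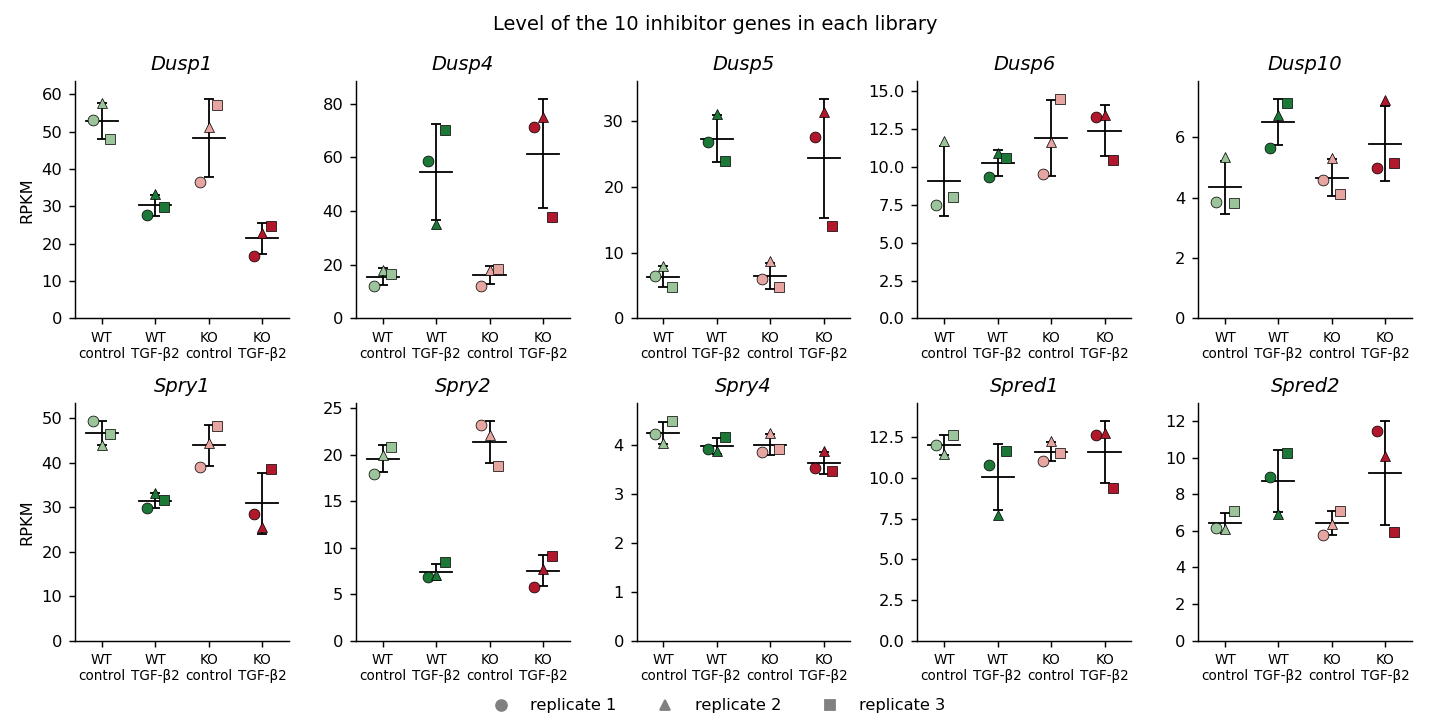
RPKM of each of the 10 genes in every library, by group; horizontal bars are the mean and vertical bars the SD of 3 libraries, and marker shapes give the replicate number. Dusp4 and Dusp5 were higher and Dusp1, Spry1 and Spry2 lower in every stimulated library than in every control library of the same genotype.

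Dusp5, Dusp1 and Spry2 are shown with the sequence before their start because, with Dusp4, they are the members called after TGF-β2 in both genotypes. RefSeq windows of GRCm38.p6, from 250 bases before to 50 bases after a transcription start, were matched for 8 of the 10 genes; Dusp4 and Spry4 were not matched. Both strands were searched for the cAMP response element TGACGTCA, its core TGACG, which lies inside the full element, the AP-1 site TGANTCA, the ETS site CCGGAA, the SMAD box CAGAC, the TATA box TATAAA and the CArG box, which serum response factor is known to bind. The sequences below run 5′ to 3′ on the strand of the gene, from 250 to 51 bases before the RefSeq start, and capitals mark every match. The Dusp5 stretch is chr19:53528895-53529094 (+ strand, GRCm38.p6), and 1 annotated exon of another gene overlaps it. The Dusp1 stretch is chr17:26508523-26508722 (- strand), inside the annotated span of Dusp1 but in no exon. The Spry2 stretch is chr14:105896870-105897069 (- strand), in no exon.
Dusp5: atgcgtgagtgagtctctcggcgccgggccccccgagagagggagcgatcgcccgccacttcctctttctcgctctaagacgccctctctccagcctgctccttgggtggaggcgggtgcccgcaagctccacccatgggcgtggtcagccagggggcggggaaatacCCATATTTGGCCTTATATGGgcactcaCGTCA
Dusp1: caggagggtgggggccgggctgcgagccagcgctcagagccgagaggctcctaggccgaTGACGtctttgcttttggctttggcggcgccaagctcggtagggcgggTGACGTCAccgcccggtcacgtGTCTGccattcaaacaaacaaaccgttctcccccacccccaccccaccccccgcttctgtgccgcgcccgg
Spry2: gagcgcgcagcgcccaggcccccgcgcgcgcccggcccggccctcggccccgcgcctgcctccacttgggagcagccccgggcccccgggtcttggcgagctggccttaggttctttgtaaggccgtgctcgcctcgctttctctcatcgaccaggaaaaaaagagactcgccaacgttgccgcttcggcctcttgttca
The Dusp5 stretch held 2 adjoining CArG boxes, CCATATTTGG at 82 to 73 bases and CCTTATATGG at 72 to 63 bases before the start, and a cAMP response element core on the reverse strand at 55 to 51 bases. A CArG box was found in 1.63% of all 32851 windows, and 2 or more were found in 6 windows. The Dusp1 stretch held a full cAMP response element, 143 to 136 bases before the start, a further core at 191 to 187 bases and a SMAD box on the reverse strand at 121 to 117 bases; the full element was found in 1.79% of all windows, a core in 20.81% and a SMAD box in 49.59%. No match was found in the Spry2 stretch shown, and its full window held an ETS site after the start (14.9% of all windows). Among the other windows, that of Spred2 held a core, and those of Dusp6, Dusp10, Spry1 and Spred1 held none of these letters. AP-1 sites (7.81% of all windows) and TATA boxes (13.62%) were found in none of the 8. A match describes the letters and is not a measured site.

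TGF-β2 changed 6 of the 10 inhibitors in WT fibroblasts: the phosphatases Dusp4, Dusp5 and Dusp10 rose, and the phosphatase Dusp1 and the Sprouty genes Spry1 and Spry2 fell. Of all 10743 genes tested in this comparison, 10.6% rose and 12.3% fell (adjusted p under 0.05 from edgeR's quasi-likelihood test, Benjamini-Hochberg method, at any fold change), against 3 and 3 of the 10 members. The libraries of WT control and WT with TGF-β2 did not overlap for these 6 genes, as for 45.2% of all genes. In Nox4 KO fibroblasts 4 members were called: Dusp4 and Dusp5 rose, where 15.2% of 10809 genes rose, and Dusp1 and Spry2 fell, where 15% of all genes fell. For 5 members, these 4 and Spry1, the Nox4 KO groups did not overlap, as for 48.5% of all genes. The 1644 rises and 1626 falls in Nox4 KO became 1217 and 1978 with upper-quartile normalization and 1044 and 2135 with scaling by library size alone; the direction of each called member was unchanged under both. Median log2 fold changes over the members were 0.08 in WT and 0.12 in Nox4 KO, beside -0.003 and -0.01 over all genes tested.

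**Figure D2:**
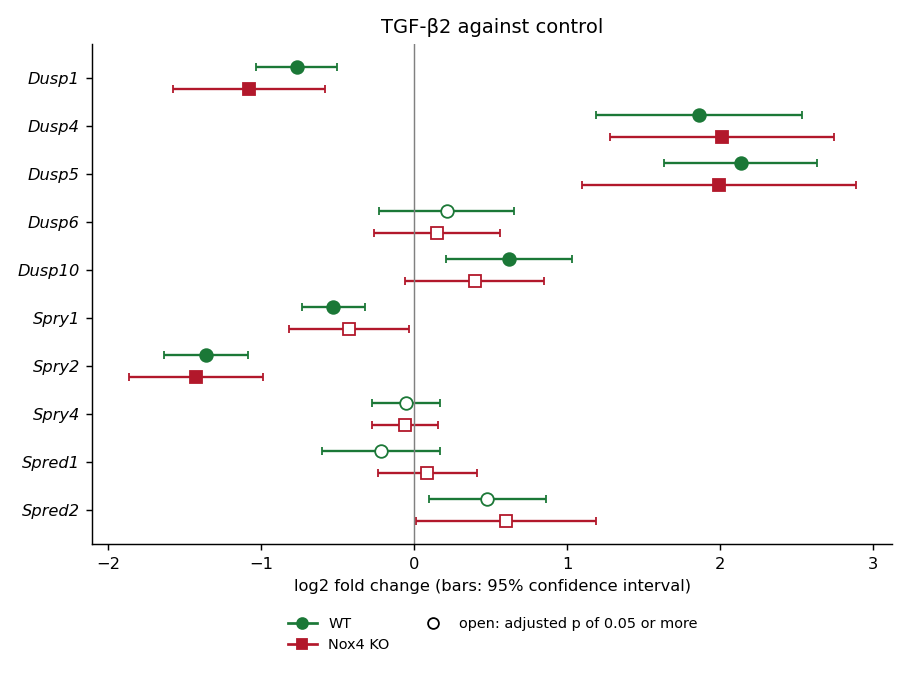
Log2 fold change after TGF-β2 in WT (circles) and Nox4 KO fibroblasts (squares), with 95% confidence intervals from 3 libraries a group; filled symbols passed an adjusted p of 0.05. Dusp5 at 2.13 and Spry2 at -1.36 in WT are the ends of the range in that genotype.

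Dusp5 (chr19:53529109-53542431, + strand), the ERK-specific nuclear phosphatase, rose more than any other member in WT. Its RPKM was 6.44, 7.90 and 4.77 in WT control and 26.8, 31.1 and 24.0 after TGF-β2, so that the lowest stimulated library lay far above the highest control. The log2 fold change was 2.13 (SE 0.21, adjusted p = 0.00136), a 4.38-fold rise with a 95% interval of 3.10- to 6.20-fold. In Nox4 KO the RPKM was 5.93, 8.71 and 4.79 in control and 27.6, 31.3 and 14.0 after TGF-β2, with replicate 3 lowest in both groups. The rise was 3.97-fold (log2 1.99, SE 0.37, adjusted p = 0.0128) and 2.27 on the log2 scale without replicate 3 of the stimulated group, and without replicate 2 of that group the adjusted p was 0.0513. This is the gene whose upstream stretch holds the adjoining CArG boxes, and their part in the rise was not tested. Its exons overlap an annotated antisense gene, AC137853.2, over 547 bases, and whether the authors' counting used the strand is not given in the sources used here, so reads of the pair cannot be told apart in that overlap.

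Dusp4 (chr8:34807297-34819894, + strand), a nuclear phosphatase induced by ERK signaling, rose by a similar size. In WT control its RPKM was 12.0, 18.1 and 16.5, and after TGF-β2 58.4, 35.1 and 70.3. All stimulated libraries lay above all controls, with replicate 2 lowest among the stimulated. The rise was 3.63-fold with a 95% interval of 2.28- to 5.79-fold (log2 1.86, SE 0.28, adjusted p = 0.0057). In Nox4 KO its RPKM was 12.2, 17.9 and 18.4 in control and 71.4, 74.9 and 37.9 after TGF-β2, again without overlap and with 1 stimulated library, replicate 3, well below the others. The rise was 4.03-fold (log2 2.01, SE 0.30, adjusted p = 0.00732). Without the low stimulated library the log2 fold change was 2.11 in WT and 2.27 in Nox4 KO. Those 2 libraries had the highest Acta2 of their groups, 7853 and 6836 RPKM against 5094 and 5232 in the other WT and 4366 and 4757 in the other Nox4 KO stimulated libraries, a comparison chosen after the values were seen, and the part of this difference in the Dusp4 values was not tested.

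Dusp10 (chr1:184013302-184075636, + strand), which acts mainly on JNK and p38, had a smaller change. Its RPKM was 3.86, 5.36 and 3.83 in WT control and 5.66, 6.75 and 7.14 after TGF-β2, and the highest control lay just below the lowest stimulated library. The rise was 1.54-fold (log2 0.62, SE 0.17, adjusted p = 0.0436). On leaving out 1 library it passed the test only without replicate 2 of WT control: leaving out any of the other 5 gave adjusted p-values of 0.0655 to 0.154, and scaling by library size alone gave 0.0551. In Nox4 KO, the RPKM was 4.59, 5.31 and 4.12 in control and 4.98, 7.24 and 5.17 after TGF-β2, with overlap. The log2 fold change of 0.39 (SE 0.19, adjusted p = 0.155) did not pass the test, and with the replicate numbers as a block, which pair the Nox4 KO libraries, it did (0.39, adjusted p = 0.0145).

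Dusp1 (chr17:26505590-26562128, - strand), the broad-range nuclear phosphatase and the most abundant member in control cells, moved the other way. In WT its RPKM was 53.2, 57.5 and 48.0 in control and 27.8, 33.2 and 29.9 after TGF-β2, without overlap. The level was 1.70-fold lower (log2 -0.77, SE 0.11, adjusted p = 0.00492). In Nox4 KO the values were 36.6, 51.1 and 57.1 RPKM in control and 16.8, 22.9 and 24.8 after TGF-β2. Replicate 1 was lowest in both Nox4 KO groups, and each stimulated library held 0.434 to 0.460 of the RPKM of the control with its number. The fall was 2.11-fold (log2 -1.08, SE 0.20, adjusted p = 0.0134), with adjusted p = 0.0528 without replicate 2 of the stimulated group and 0.000145 with the replicate block.

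Dusp6 (chr10:99263231-99267489, + strand), the cytoplasmic ERK phosphatase and a widely used readout of ERK activity, did not pass the test in either genotype. Its RPKM ranged from 7.48 to 11.7 in WT control and from 9.31 to 10.9 after TGF-β2, and from 9.54 to 14.5 and from 10.5 to 13.4 in Nox4 KO. The groups overlapped in both genotypes. Its log2 fold change was 0.21 in WT (95% interval -0.23 to 0.65) and 0.15 in Nox4 KO (-0.26 to 0.56).

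The sum of the 5 phosphatases had a higher mean after TGF-β2, and its makeup differed. In WT the summed RPKM was 88.2 ± 10.8 (SD, n = 3) in control and 129 ± 12.4 after TGF-β2, and in Nox4 KO 87.5 ± 16.3 and 125 ± 29.6, where 1 stimulated library (92.4) lay inside the control range. Dusp1 made up 60.2% ± 3.58 of this sum in WT control and 23.7% ± 4.06 after TGF-β2, and 55.0% ± 2.44 and 18.2% ± 7.59 in Nox4 KO. Dusp4 made up 17.6% ± 2.97 and 41.7% ± 10.3 in WT, and 18.4% ± 0.60 and 48.1% ± 6.34 in Nox4 KO. These sums describe the levels and were not tested.

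Spry2 (chr14:105891947-105896819, - strand), an inhibitor of receptor tyrosine kinase signaling, had the largest fall among the members in both genotypes. Its RPKM was 17.9, 20.0 and 20.8 in WT control and 6.80, 7.01 and 8.41 after TGF-β2. Every stimulated library held less than the lowest control, and the ranges were far apart. The level was 2.57-fold lower (log2 -1.36, SE 0.12, adjusted p = 0.000877). In Nox4 KO it was 23.2, 22.1 and 18.8 RPKM in control and 5.77, 7.66 and 9.09 after TGF-β2, 2.69-fold lower (log2 -1.43, SE 0.18, adjusted p = 0.0050). The call held without each library in turn in both genotypes.

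Spry1 (chr3:37639947-37644598, + strand), its more abundant paralog, fell less. In WT the RPKM was 49.4, 44.0 and 46.4 in control and 29.8, 33.1 and 31.6 after TGF-β2, without overlap and 1.44-fold lower (log2 -0.53, SE 0.09, adjusted p = 0.00721). In Nox4 KO the values were 39.0, 44.5 and 48.2 RPKM in control and 28.4, 25.4 and 38.7 after TGF-β2, also without overlap, although the highest stimulated library, replicate 3, lay just below the lowest control. The log2 fold change was -0.42 (SE 0.16, adjusted p = 0.0942) and did not pass the test. It passed without that library (-0.61, adjusted p = 0.0126), with the replicate block (-0.44, adjusted p = 0.0162) and with DESeq2 (-0.42, adjusted p = 0.0457). Exons of Spry1 overlap Gm42922, annotated on the opposite strand, over 710 bases, with the same limit on strand as for Dusp5.

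Spred2 (chr11:19924375-20024026, + strand), a membrane-bound inhibitor of RAF activation, lay just outside the threshold. Its RPKM was 6.14, 6.10 and 7.08 in WT control and 8.95, 6.91 and 10.3 after TGF-β2, and 5.78, 6.40 and 7.07 in Nox4 KO control and 11.4, 10.1 and 5.95 after TGF-β2. In each genotype 1 stimulated library, replicate 2 in WT and replicate 3 in Nox4 KO, lay within the control range and the other 2 lay above it. The log2 fold change was 0.48 in WT (SE 0.16, adjusted p = 0.0739) and 0.60 in Nox4 KO (SE 0.24, adjusted p = 0.108). Without those libraries, which are also the lowest in Dusp4, it was 0.63 (adjusted p = 0.00622) and 0.84 (adjusted p = 0.00612). In WT it also passed with DESeq2 (adjusted p = 0.0372), edgeR's exact test (adjusted p = 0.0397) and the replicate block (adjusted p = 0.0406).

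Spred1 (chr2:117121374-117182279, + strand) and Spry4 (chromosome 18, - strand) had no called change. The RPKM of Spred1 was 11.4 to 12.7 in WT control, 7.74 to 11.6 after TGF-β2, 11.1 to 12.3 in Nox4 KO control and 9.41 to 12.8 after TGF-β2, overlapping throughout. Its log2 fold change was -0.22 in WT (95% interval -0.60 to 0.17) and 0.08 in Nox4 KO (-0.24 to 0.41). The steadiest member was Spry4, between 3.48 and 4.51 RPKM in all 12 libraries, with log2 fold changes of -0.05 (-0.28 to 0.17) and -0.06 (-0.28 to 0.16).

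Together the 5 Sprouty family transcripts had a summed RPKM of 88.9 ± 3.01 in WT control and 61.6 ± 3.94 after TGF-β2, and 87.3 ± 3.82 and 62.7 ± 3.46 in Nox4 KO, without overlap in either genotype. Spry1 made up 52.4% ± 2.32 of the sum in WT control and 51.2% ± 4.57 after TGF-β2. Spry2 made up 22.0% ± 1.78 and 12.0% ± 0.72, and Spred2 7.24% ± 0.46 and 14.1% ± 1.99. As for the phosphatases, these sums were not tested.

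Whether loss of Nox4 altered these inhibitors was asked in control cells, after TGF-β2 and as an interaction of genotype with stimulation. No member was called in any of the 3 tests by edgeR's quasi-likelihood test or by DESeq2, nor in both pairwise comparisons by edgeR's exact test. Over all genes the quasi-likelihood test called 0% in each (of 10767, 10439 and 10890 genes). At an unadjusted p under 0.05, 0 of 10 members stood out in control cells (5.54% of all genes), 1 of 10 after TGF-β2 (3.22%) and 0 of 10 in the interaction (2.66%). The member was Dusp1, whose 3 stimulated Nox4 KO libraries (16.8, 22.9 and 24.8 RPKM) all lay below the 3 stimulated WT libraries (27.8, 33.2 and 29.9 RPKM). Its log2 difference was -0.47 (95% interval -0.83 to -0.11, adjusted p = 0.835 by edgeR), and it was the 1 member of 10 without overlap, as for 10.1% of all genes. In control cells no member was without overlap, as against 13.6% of all genes, and Dusp1 had a log2 difference of -0.17 (-0.58 to 0.23).

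Intervals of the other differences limit how far the genotypes could lie apart. In control cells the 95% intervals of Spred1, Spry4 and Spred2 were the narrowest, at 0.845 to 1.05-fold, 0.805 to 1.05-fold and 0.836 to 1.13-fold of WT, and the widest was that of Dusp5, at 0.615 to 1.60-fold. After TGF-β2 Dusp4 was 1.13-fold of WT with an interval of 0.642 to 2.00-fold, the 1 member whose interval in the pairwise comparisons reached a 2-fold difference. Dusp6 had the largest log2 difference in control cells, 0.35 (-0.18 to 0.87), and 0.29 (-0.01 to 0.60) after TGF-β2. The interaction, which compares the TGF-β2 effect in Nox4 KO with that in WT, was largest for Spred1 (0.31 on the log2 scale, -0.20 to 0.82) and Dusp1 (-0.30, -0.83 to 0.24) and widest for Dusp4 (0.16, -0.82 to 1.13) and Dusp5 (-0.13, -1.10 to 0.84). A call in WT and none in Nox4 KO, as for Dusp10 and Spry1, was therefore not shown to be a difference between genotypes, with interactions of -0.21 (adjusted p = 0.865) and 0.12 (adjusted p = 0.899).

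**Figure D3:**
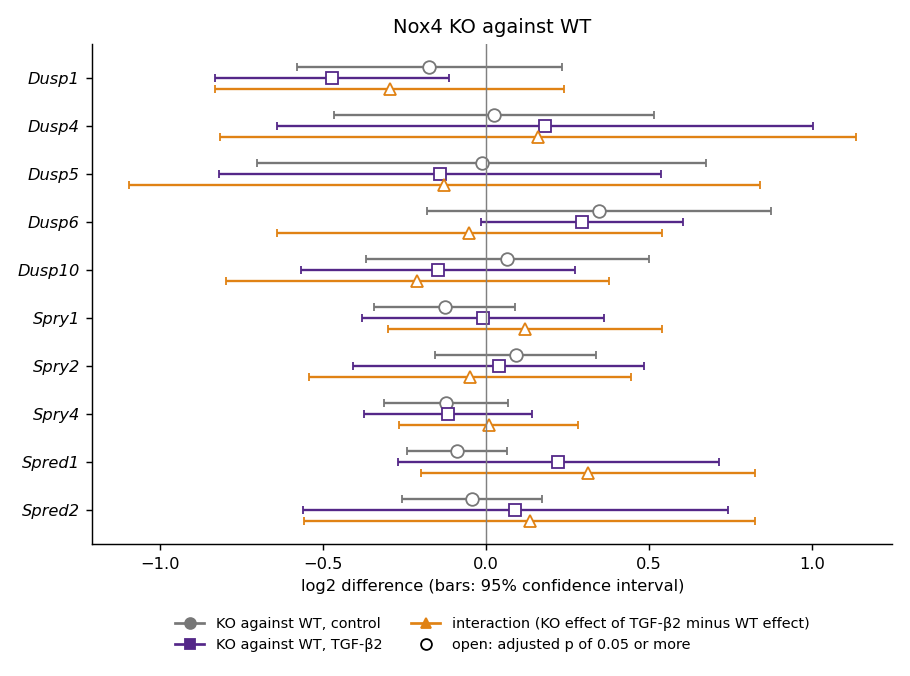
Log2 difference between Nox4 KO and WT in control (circles) and after TGF-β2 (squares), and the interaction (triangles), with 95% confidence intervals; no symbol is filled, since no adjusted p was under 0.05. Dusp1 after TGF-β2, at -0.47, is the 1 member whose interval leaves out 0.

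For the members, the gene with the most similar profile was sought by the root mean square difference of log2 CPM, centered per gene, over all 12 libraries and 10890 genes. Ptgs2, which encodes the prostaglandin synthase COX-2, lay nearest to Dusp4 (0.25, where the median gene was 1.04 away), and Olfm2 nearest to Dusp5 (0.17, median 1.11). Nrn1 lay nearest to Spry2 (0.16, median 0.75) and Znhit6 to Dusp1 (0.18, median 0.58). Further nearest genes were Copg2 for Spry1 (0.09), Rps6 for Dusp10 (0.15), Hectd2 for Spred2 (0.14), Crebbp for Spred1 (0.06) and Flcn for Spry4 (0.04). Among the members themselves, Dusp4 and Dusp5 were each other's nearest (0.44), as were Spry4 and Spred1 (0.19), and Spry2 lay nearest to Dusp1 (0.39).

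The remaining genes of the same pathways were taken from 6 lists. Of 7 other MAP kinase phosphatases and Sprouty family members, 5 could be tested, and Dusp9, a cytoplasmic ERK phosphatase, was the 1 that rose in both genotypes. It was at 0.54 ± 0.14 RPKM in WT control and 2.04 ± 0.20 after TGF-β2 (log2 1.97, SE 0.24, adjusted p = 0.00265), and at 0.50 ± 0.10 and 1.46 ± 0.62 in Nox4 KO (log2 1.64, adjusted p = 0.0286). It reached the limit of a group mean of 1 RPKM for testing only through the stimulated groups, where it is high, so its call adds nothing to the count of this list. Dusp7, an ERK phosphatase of the same branch as Dusp6, had -0.18 and -0.17 on the log2 scale and Spred3 -0.09 and -0.05, neither called. Dusp2 was below the limit in every group, and Spry3 was not analysed here. Among 9 atypical dual-specificity phosphatases tested, 4 rose in WT, where 10.6% of all genes rose, and 3 of these in Nox4 KO, where 15.2% rose, and none fell. Dusp14 rose by 1.55 and 1.20 on the log2 scale, Dusp28 by 1.23 and 1.09 and Dusp3, the small phosphatase VHR, by 0.88 and 0.78, while Dusp12 rose in WT (0.43, adjusted p = 0.0471) and had 0.29 in Nox4 KO. Dusp11 and Dusp19 stayed between -0.09 and 0.10 and were not called.

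In the kinase cascades themselves the counts of called genes lay near the shares over all genes, of which 10.6% rose and 12.3% fell in WT and 15.2% rose and 15% fell in Nox4 KO, and are not a result about the cascades. Of 20 RAS-ERK cascade genes, 2 rose and 3 fell in WT, and 4 rose and 3 fell in Nox4 KO, with medians of -0.12 and 0.03. Ksr1, a scaffold that holds RAF, MEK and ERK together, fell most, from 6.75 ± 0.29 to 2.31 ± 0.27 RPKM in WT (log2 -1.50, SE 0.12, adjusted p = 0.000722) and by 1.29 on the log2 scale in Nox4 KO. Map2k1, which encodes MEK1, rose by 0.59 in WT and 0.53 in Nox4 KO, and the adaptor Shc1 fell by 0.46 and 0.29. Gab1, a docking protein, fell by 0.62 in WT and had -0.42 in Nox4 KO, which was not called, and Mapk3 (ERK1) fell by 0.50 in Nox4 KO and had -0.48 in WT, not called. Map2k2 (MEK2) was called in neither. Of 15 JNK, p38 and ERK5 cascade genes tested in WT, 3 rose and 1 fell, and of 16 in Nox4 KO 2 rose and 1 fell. The p38 kinase Mapk14 rose by 0.38 and 0.33, its substrate kinase Mapkapk2 by 0.53 and 0.42, and Mapkapk3 fell by 0.49 and 0.59. Mapk11 rose by 0.43 in WT and had 0.35 in Nox4 KO, and Map2k3 and Tab2 were called in neither.

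Of 11 other inhibitors of RAS-ERK signaling, 1 rose and none fell in WT, a count near the 10.6% of all genes that rose, and 5 rose and 1 fell in Nox4 KO, where 15.2% and 15% of all genes did. Lrig1, a membrane protein that restrains receptor tyrosine kinases, rose by 0.99 in WT and 1.00 in Nox4 KO. The RAS GTPase activators Rasa1, Rasa2 and Rasal2 rose in Nox4 KO by 0.49, 0.74 and 0.24, as did the ubiquitin ligase Cbl by 0.61, and in WT these 4 had 0.29, 0.32, -0.27 and 0.20 and were not called. Errfi1 and Erf were called in neither. Of 12 ERK-responsive transcripts tested, 4 rose and 4 fell in WT, beside 10.6% and 12.3% of all genes, and 2 rose and 2 fell in Nox4 KO, near the 15.2% and 15% of all genes. The ETS factor Etv4 rose by 1.31 and 0.97 and Myc by 1.02 and 0.74, while cyclin D1 (Ccnd1) fell by 2.28 and 1.99 and Fos by 1.48 and 1.93. Phlda1 rose by 1.28 in WT and had 0.99 in Nox4 KO (adjusted p = 0.0507). Ier3 and Epha2 were called in neither. No gene of the 6 lists was called between Nox4 KO and WT or in the interaction by edgeR's quasi-likelihood test.

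**Figure D4:**
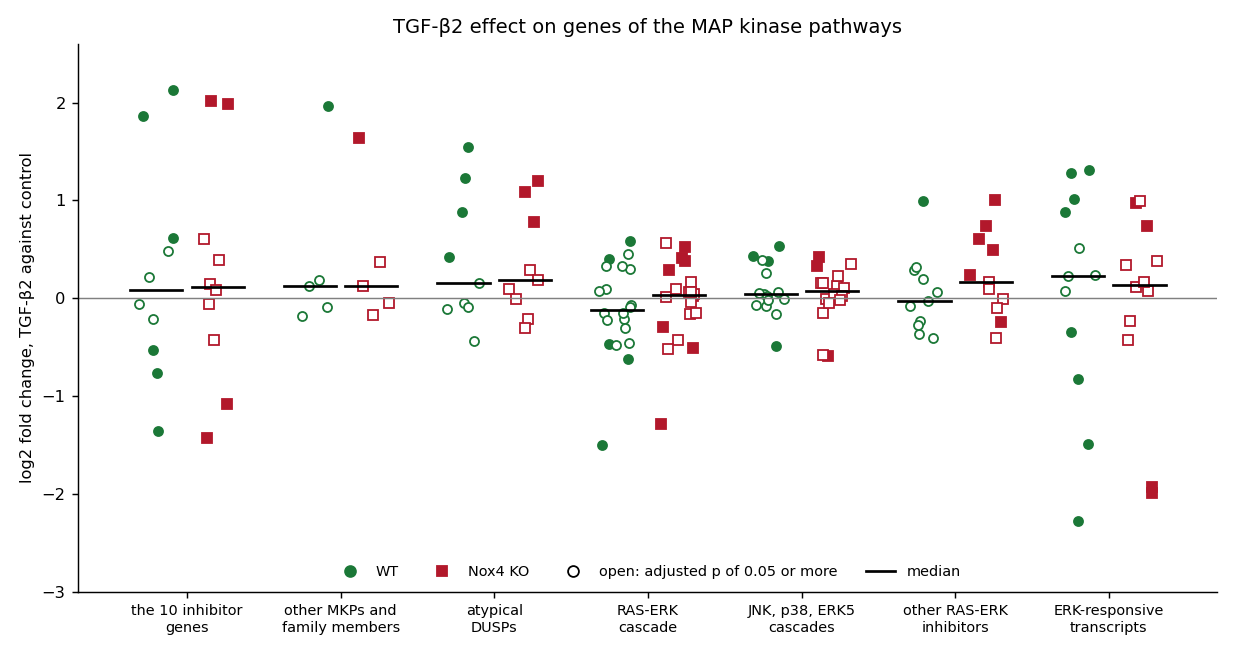
Log2 fold change after TGF-β2 of every tested gene of the 10 inhibitors and of 6 pathway lists, in WT (circles) and Nox4 KO (squares); filled symbols passed an adjusted p of 0.05 and bars are medians. Called genes lie on both sides of 0 in the 10 inhibitors, the kinase cascades and the ERK-responsive transcripts, and above it among the atypical phosphatases.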

How the data were processed

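RNA from 12 libraries of mouse skin fibroblasts was sequenced single-end. Per the submitters' processing notes, base calling, mapping and counting used CASAVA 1.8.2, STAR 2.4 and featureCounts 1.4.6 on GRCm38. The authors discarded reads with several locations and deposited raw counts per gene over merged exons of protein-coding isoforms, without normalization. All table columns were assigned to a sample.

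RPKM used the total count and merged exon lengths from GENCODE. Genes that reached a group mean of 1 RPKM were tested with edgeR 4.0.16 in R 4.3.3 (quasi-likelihood test, TMM normalization, Benjamini-Hochberg adjustment over all genes tested). Pairwise comparisons used their own 6 libraries and the interaction all 12. A call is an adjusted p under 0.05. Standard errors were derived from the F statistic, and 95% intervals from these. The procedure was tested on simulated counts.

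Members and gene lists were chosen with earlier results of these data known. Named were all members, up to 5 called genes with the largest WT fold change and the 2 most abundant uncalled genes of each list, the nearest gene to each member, and Nox4, Smad7, Ccn2 and Acta2; a few genes under this rule are not reported here. Promoter sequences are from RefSeq.

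Replicate numbers are shared between groups in the labels. Deviations from the group mean in Nox4 KO correlated over genes between control and stimulated samples of equal number (0.771, 0.685 and 0.748), so the numbers pair them by this check, though no label or method states it. In WT the correlations were 0.0731, 0.437 and 0.532. Each stimulated WT library correlated most with the control of its number, but control replicate 1 correlated more with stimulated replicate 2 (0.308). The check therefore left the pairing of the WT libraries undecided. Replicates differed by chi-square statistics of 14.4 to 147 per gene, so each library counted as 1 sample. Alternatives were DESeq2 1.42.0, edgeR's exact and legacy tests, other normalizations and filters, all 12 libraries in the fit, the replicate block, a fold limit of 2 and leaving out each library.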

Additional observations from a re-analysis of the deposited data

How the results depend on the processing

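Member calls after TGF-β2 (6 in WT, 4 in Nox4 KO) stayed within 1.5 times of these counts except with a fold limit of 2, which left 3 in WT (Dusp4, Dusp5 and Spry2), and on leaving out a library, which gave 5 to 6 in WT and 2 to 6 in Nox4 KO, with 2 (Dusp4 and Spry2) without replicate 2 of the stimulated group. With the replicate block, 7 members were called in WT, where the pairing of the libraries was left undecided, and 6 in Nox4 KO. Between genotypes and in the interaction, 0 members were called under every alternative run, the replicate block included. No called member changed direction under these alternatives. Over all genes, the 2463 calls in WT became 832 with the fold limit and 1283 to 3406 without 1 library, lowest without replicate 1 of the stimulated group; the 3270 in Nox4 KO became 737, 1157 to 3513, lowest without replicate 2 of the stimulated group, and 5832 with the replicate block. The 0 calls between genotypes in control became 28 with DESeq2, 17 with the exact test, 1 with all 12 libraries in the fit and 0 to 1 without a library. Those after TGF-β2 became 16 with DESeq2, 7 with the exact test and 0 to 1 without a library, and the interaction gave 6 with DESeq2. The cause of these differences was not tested.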
